A study of Mus musculus with 2 samples.

Results

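ATAC-seq marks open chromatin: a transposase inserts sequencing adapters where DNA is accessible, and regions with many insertions are listed as peak intervals. The cells were primary erythroblasts, which are red cell precursors that still have a nucleus, taken from C57BL/6J males at an age of 5 to 6 weeks. The 1 group held 2 biological replicates of 50000 cells each, so there was no contrast between conditions. The genes described here have a CpG-rich promoter with no open site in either replicate. They were chosen from the 20807 protein-coding genes of chromosomes 1 to 19 in the GENCODE M21 annotation by 3 conditions: a ratio of observed to expected CpG of at least 0.6 over the 1 kb on either side of the 5′ end, no interval of either replicate's pseudoreplicated list within 1 kb of any annotated start site, and a symbol that does not start with Hox. The ratio and symbol conditions were met by 7265 genes, and 1506 of them had no interval in either replicate, 20.7% of the CpG-rich genes. They are called closed CpG-rich genes here, and "closed" means no more than the absence of an interval in these lists. Another 5593 CpG-rich genes (77.0%) had an interval in both replicates and are called open CpG-rich genes, and 166 (2.28%) had an interval in 1 replicate only. Since the peak lists chose the members, the split between closed and open is a description. The CpG ratio was part of that choice too, so the CpG and GC content around the 5′ end of closed and open genes is also given as a description.

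A CpG island is a stretch of DNA that has kept its CpG dinucleotides, which elsewhere in vertebrate genomes are depleted through methylation. Most island promoters belong to genes used in many tissues and are free of nucleosomes in most cells. A further set belongs to developmental regulators, whose promoters are held by Polycomb complexes in the cells that do not use them, and a few, such as those of germ cell genes, are silenced by DNA methylation in somatic cells. Peak lists of open chromatin show neither Polycomb marks nor methylation. In bulk cells they also do not tell a site open in few cells from a site weakly open in many.

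The label of the cells was checked against marker genes. All 12 erythroblast markers, among them Klf1, Epor, Slc4a1 and Alas2, had an interval within 1 kb of a start site in both replicates. None of 4 hepatocyte, 6 lymphocyte and 5 myeloid markers had one, while Rbfox3 and Tubb3 of 7 neuron markers and Ckm of 3 muscle markers had one in both replicates. Of 5 stem and progenitor markers, Kit had an interval in replicate 2 alone. Flt3, Meis1 and Gata2 were closed CpG-rich genes, and Cd34 had no interval with a CpG-poor promoter.

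The 200 bases upstream of the 5′ end show what these promoters look like. The stretches come from the mm10 reference (GRCm38.p6) and read 5′ to 3′ on the gene's strand, with every CpG in capitals. En2, Sox11, Insm1, Fzd3 and Grik3 have the highest CpG ratio among the closed members of their gene lists. Slc2a1 is the closed member of the red cell membrane list, and Ccdc102a is a closed gene with many open sites around it.
En2, chr5:28165494-28165693, plus strand: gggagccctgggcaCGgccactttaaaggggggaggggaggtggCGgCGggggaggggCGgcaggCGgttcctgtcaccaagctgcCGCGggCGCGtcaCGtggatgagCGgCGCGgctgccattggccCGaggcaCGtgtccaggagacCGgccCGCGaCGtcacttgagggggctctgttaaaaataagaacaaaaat
Sox11, chr12:27342575-27342774, minus strand: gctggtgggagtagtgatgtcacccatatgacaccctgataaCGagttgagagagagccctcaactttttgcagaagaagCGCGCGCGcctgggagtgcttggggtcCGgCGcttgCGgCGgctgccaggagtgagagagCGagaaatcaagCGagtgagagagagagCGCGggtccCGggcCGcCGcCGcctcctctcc
Insm1, chr2:146221721-146221920, plus strand: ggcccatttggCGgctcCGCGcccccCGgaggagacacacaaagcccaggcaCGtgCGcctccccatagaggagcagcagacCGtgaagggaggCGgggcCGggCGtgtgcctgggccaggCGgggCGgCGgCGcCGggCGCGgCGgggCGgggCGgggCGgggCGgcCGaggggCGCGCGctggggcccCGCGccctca
Fzd3, chr14:65262464-65262663, minus strand: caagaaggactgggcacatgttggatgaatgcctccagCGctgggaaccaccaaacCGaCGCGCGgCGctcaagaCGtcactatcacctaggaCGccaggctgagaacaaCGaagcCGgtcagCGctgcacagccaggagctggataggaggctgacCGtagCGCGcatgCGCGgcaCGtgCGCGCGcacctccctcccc
Grik3, chr4:125490500-125490699, plus strand: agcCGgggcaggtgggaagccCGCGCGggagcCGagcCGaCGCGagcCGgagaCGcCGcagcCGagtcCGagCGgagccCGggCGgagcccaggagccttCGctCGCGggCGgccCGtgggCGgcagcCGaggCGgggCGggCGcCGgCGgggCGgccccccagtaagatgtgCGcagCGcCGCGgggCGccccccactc
Slc2a1, chr4:119108511-119108710, plus strand: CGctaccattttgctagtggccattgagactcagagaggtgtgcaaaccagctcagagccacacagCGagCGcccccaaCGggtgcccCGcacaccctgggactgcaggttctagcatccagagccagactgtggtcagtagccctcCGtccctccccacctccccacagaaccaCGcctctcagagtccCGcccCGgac
Ccdc102a, chr8:94918099-94918298, minus strand: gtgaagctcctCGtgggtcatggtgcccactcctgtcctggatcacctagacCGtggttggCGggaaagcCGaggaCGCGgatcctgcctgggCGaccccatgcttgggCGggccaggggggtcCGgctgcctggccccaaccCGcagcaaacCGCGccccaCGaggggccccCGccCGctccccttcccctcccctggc
The stretches hold 19 CpGs in En2, 17 in Sox11, 28 in Insm1, 20 in Fzd3, 34 in Grik3, 9 in Slc2a1 and 15 in Ccdc102a. For contrast, Dhx36, an RNA helicase gene, and Naxd, a metabolite repair gene, are shown as open CpG-rich genes with high enrichment. Both hold the ETS motif in the 200 bases upstream, and no other annotated gene overlaps either stretch. They were picked from only a part of the open genes with the motif, so other such genes may have higher enrichment. Here the capitals mark that motif, which ETS family transcription factors bind, and the Naxd match lies on the opposite strand.
Dhx36, chr3:62507005-62507204, minus strand: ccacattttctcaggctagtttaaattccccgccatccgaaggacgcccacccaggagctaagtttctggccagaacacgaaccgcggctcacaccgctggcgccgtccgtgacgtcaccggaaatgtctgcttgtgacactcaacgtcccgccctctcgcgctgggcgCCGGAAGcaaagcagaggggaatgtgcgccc
Naxd, chr8:11497306-11497505, plus strand: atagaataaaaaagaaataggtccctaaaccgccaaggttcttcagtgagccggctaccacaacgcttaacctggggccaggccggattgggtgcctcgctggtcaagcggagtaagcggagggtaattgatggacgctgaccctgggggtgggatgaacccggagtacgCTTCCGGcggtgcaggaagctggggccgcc
The interval at Dhx36 had an enrichment of 17.9 in replicate 1 and 17.5 in replicate 2. That at Naxd had 16.7 in replicate 1 and 18.5 in replicate 2. Enrichment is the fold of a summit over background given by the authors' peak caller, and it is used here only to describe or rank intervals. Dhx36 and Naxd were picked within that part by the mean of the replicates, and 1 later ranking takes the highest value over several lists.

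Among all 20807 protein-coding genes 49.3% had no interval in either replicate, and among the 13503 genes under the ratio of 0.6 the share was 64.5%. Hox genes are left out of the 13503 and of the shares by ratio that follow. The share of closed genes was lower at higher CpG ratios, apart from a few neighboring bins that were level or slightly up. It was 96.4% (1320 of 1370) at ratios under 0.1, 40.2% at 0.4 to 0.5 and 29.3% at 0.5 to 0.6. Above the threshold it was 24.5% at 0.6 to 0.65, 21.6% at 0.65 to 0.7, 21.9% at 0.7 to 0.75, 18.3% at 0.8 to 0.85, 19.1% at 0.85 to 0.9 and 8.33% (5 of 60, 95% Wilson interval 3.61 to 18.1%) at 1 or more. There was no step at 0.6. The 5 members just above it were Gm37013, Gm4881, Sgpp2, Tgfb2 and Elfn2, and the 5 closed genes just below it were Zdhhc8, Slc16a14, Dusp14, Has2 and Samd14. All intervals given here cover counting error only.

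**Figure D1:**
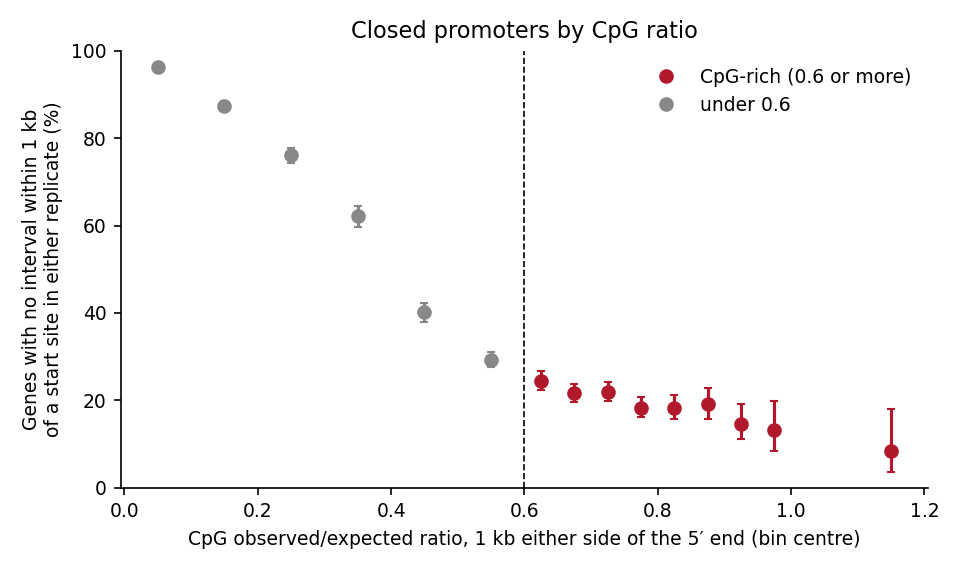
Share of protein-coding genes with no interval within 1 kb of any start site in either replicate (vertical axis, %) against the CpG ratio around the 5′ end (horizontal axis, bin centre), with 95% Wilson intervals and a dashed line at 0.6. Hox genes are left out. The share is 96.4% in the lowest bin, 24.5% just above the threshold and 8.33% in the highest bin.

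The 5 closed genes with a ratio of 1 or more stood out against that trend. Chd7, a chromatin remodeler mutated in human CHARGE syndrome, had the highest ratio, 1.18, with 261 CpGs in its window, and its nearest interval lay 42.6 kb away in both replicates. Lin28b, a fetal RNA-binding protein that blocks let-7 maturation, followed at 1.10 with 214 CpGs, and its nearest interval lay 91.3 kb away in both. Rbmxl2, a testis gene for an RNA-binding protein, had 1.08, Zbtb10 had 1.03 and Enah, an actin regulator, had 1.00. Only 67.0% of the 36-base words around the Zbtb10 start are unique in the genome, and the part this plays in the missing interval was not tested. The next 5 were Afdn, Nfil3, Chn1, Tead1 and Bmi1. Tead1 is the DNA-binding partner of YAP, and Bmi1 is a subunit of a Polycomb complex. Bmi1 had 243 CpGs and an interval 3.94 kb away in replicate 1 and 3.88 kb away in replicate 2.

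Other lists were deposited for the same libraries. The thresholded list of each replicate is shorter, with 17777 intervals in replicate 1 and 18837 in replicate 2, against 31830 and 33552 in the pseudoreplicated lists that chose the members. It held no entry within 1 kb of a start site of the 1506 genes, against 71.8% of all CpG-rich genes in replicate 1 and 72.6% in replicate 2. The choice by the longer list of the same replicate all but fixes that count of 0, so nothing is read from it. The ranked list held an entry at 10 closed genes in replicate 1 and 9 in replicate 2, or 13 in either, against 78.2% and 78.4% of all CpG-rich genes. Of these, 6 had an entry in both replicates. Gm10722 had an enrichment of 12.9 in replicate 1 and 12.3 in replicate 2, and 18.8% of its 36-base words were unique. Tmem267 and 3110070M22Rik share an entry of 7.81 in replicate 1 and 8.03 in replicate 2, with 88.3% and 85.7% of words unique. The remaining 3 were Gm11168, Gm10715 and Gm21738, with 8.70%, 15.1% and 66.8% of words unique. These 6 genes count as closed by the rule although a list of each replicate holds an entry there. The deposited descriptions name a further input file for the pseudoreplicated and thresholded lists that they do not name for the ranked list, and its content is not known here. Whether intervals at these genes were removed through it was not tested.

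Further lists were made from both replicates together. The pseudoreplicated list of this kind (42033 intervals) had an entry at 86 closed CpG-rich genes (5.71%), against 80.1% of all CpG-rich genes. The replicated list (43051 intervals) had 94 (80.1% of all CpG-rich genes). The conservative list and the thresholded list, with 26050 and 24717 intervals, are shorter than the lists that chose the members. The conservative list had 3 (76.0% of all CpG-rich genes), which were Prdm11, Slc5a5 and Gm11168, and the thresholded list 1 (75.5%), which was Gm11168. Together 120 closed genes (7.97%, 6.70 to 9.45%) had an entry in a list of both replicates other than the ranked one, against 80.6% of all CpG-rich genes. For each gene the highest enrichment over these lists was taken, and it ran from 2.03 to 5.02 with a median of 3.04. The highest were Prdm11 at 5.02, Fam19a2 at 4.78, Apcdd1 at 4.57, Atp8b2 at 4.49 and Slc12a2 at 4.40. Values from different lists are mixed here, so the order is a description only. The ranked lists of both replicates had an entry at 129 (8.57%), against 80.8% of all CpG-rich genes. No list of any kind had an entry at 1373 of the 1506 (91.2%). All these lists come from the libraries that chose the members, so the low counts are largely set by the rule and nothing is read from them.

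CpG-rich genes open in 1 replicate had a lower median enrichment than the open CpG-rich genes in the same replicate. The 75 CpG-rich genes with an interval in replicate 1 alone had enrichments of 2.36 to 6.78 with a median of 3.78, and the 91 with an interval in replicate 2 alone had 2.02 to 6.02 with a median of 3.69. The open CpG-rich genes had medians of 9.43 in replicate 1 and 9.55 in replicate 2. At the edge of the 1 kb window, Kcng3, a potassium channel subunit, and Slc6a4, the serotonin transporter, had their nearest interval 1.01 kb from a start site in replicate 1 and are members. Adcy6 at 0.989 kb and Ptpru at 0.986 kb in replicate 2 are not.

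Transcription factors that pattern the embryo were closed in most cases. Of 202 CpG-rich genes in 9 lists of such factors, 162 were closed (80.2%, 74.2 to 85.1%), against the 20.7% of all CpG-rich genes. Genes in no list had 17.0% (1138 of 6679). The lists overlap in a few genes, genes of a family share sequence, and the choice of lists was made with earlier results known, so these shares have no test.

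The homeobox factors, which assign regional identity along the body and within tissues, were closed in 69 of 80 cases (86.2%). They include the LIM factors Lhx1 and Isl1, the midbrain factors En1 and En2, 5 Irx genes and all CpG-rich NKX genes. En2 had a ratio of 0.933 with 184 CpGs, and its nearest interval was 71.5 kb away in replicate 1 and 26.3 kb away in replicate 2. Nkx2-4 had its nearest interval at 71.5 kb in replicate 1 and 71.7 kb in replicate 2. Gsc, the organizer factor goosecoid, had 33.0 kb in replicate 1 and 53.9 kb in replicate 2. The 9 homeobox genes open in both replicates were Hlx, Pbx3, Zeb1, Zeb2, Cux1, Six5, Prox2, Pknox1 and Pitx3.

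All 4 CpG-rich PAX genes (Pax2, Pax6, Pax7 and Pax9), which specify kidney, eye, muscle and tooth among others, were closed, and so were 6 of 7 T-box genes. Tbx18, a heart and ureter factor, had a ratio of 0.943 and its nearest interval 474.5 kb away in replicate 1 and 474.6 kb away in replicate 2. Its entry in a list of both replicates had an enrichment of 3.72. Mga, the open T-box gene, encodes a partner of MAX found in many cells. The POU factors were closed in 6 of 9 cases, among them the neuronal Pou4f1, Pou4f2 and Pou4f3, while Pou2f1 and Pou2f2 were open. The SOX factors were closed in 10 of 13 cases. Sox11, a neural progenitor factor, had a ratio of 0.967, and its nearest interval lay 809 kb away in both replicates. Sox2, the pluripotency factor, had its nearest interval at 569 kb in both. Sox4 differed, with intervals 4.11 kb away in replicate 1 and 4.10 kb away in replicate 2. The tissue bHLH factors, which include proneural and mesoderm factors such as Olig2 and Hand2, were closed in 20 of 24 cases. Tal1, the erythroid member of that family, and Hey2 were open. The zinc finger factors were closed in 25 of 30 cases, among them Insm1, Sall3, Prdm16, Gli2, Gli3 and Wt1. Insm1, a neuroendocrine factor, had 240 CpGs and a nearest interval at 122 kb in both replicates. Zfpm1, the GATA1 cofactor FOG1, was open along with Glis2 and Tshz1.

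Forkhead factors split. Of 32 CpG-rich forkhead genes 19 were closed (59.4%, 42.3 to 74.5%) and 13 were open in both replicates. The closed ones include the endoderm factors Foxa1 and Foxa2 and the mesoderm factors Foxc1, Foxc2 and Foxf1. The open ones were Foxo1, Foxo3 and Foxo6, Foxk1 and Foxk2, Foxj1 and Foxj2, Foxn2 and Foxn3, Foxm1, Foxp1, Foxa3 and Foxd2. They hold regulators of stress response and cell division, such as Foxo3 and Foxm1, and also tissue factors, such as the endoderm factor Foxa3 and Foxj1 of ciliated cells. Foxo3 also stands in the list of erythroid regulators. Foxc2 was closed although it had 2 open sites within 50 kb in each replicate, the nearest 2.54 kb away in replicate 1 and 2.37 kb away in replicate 2.

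**Figure D2:**
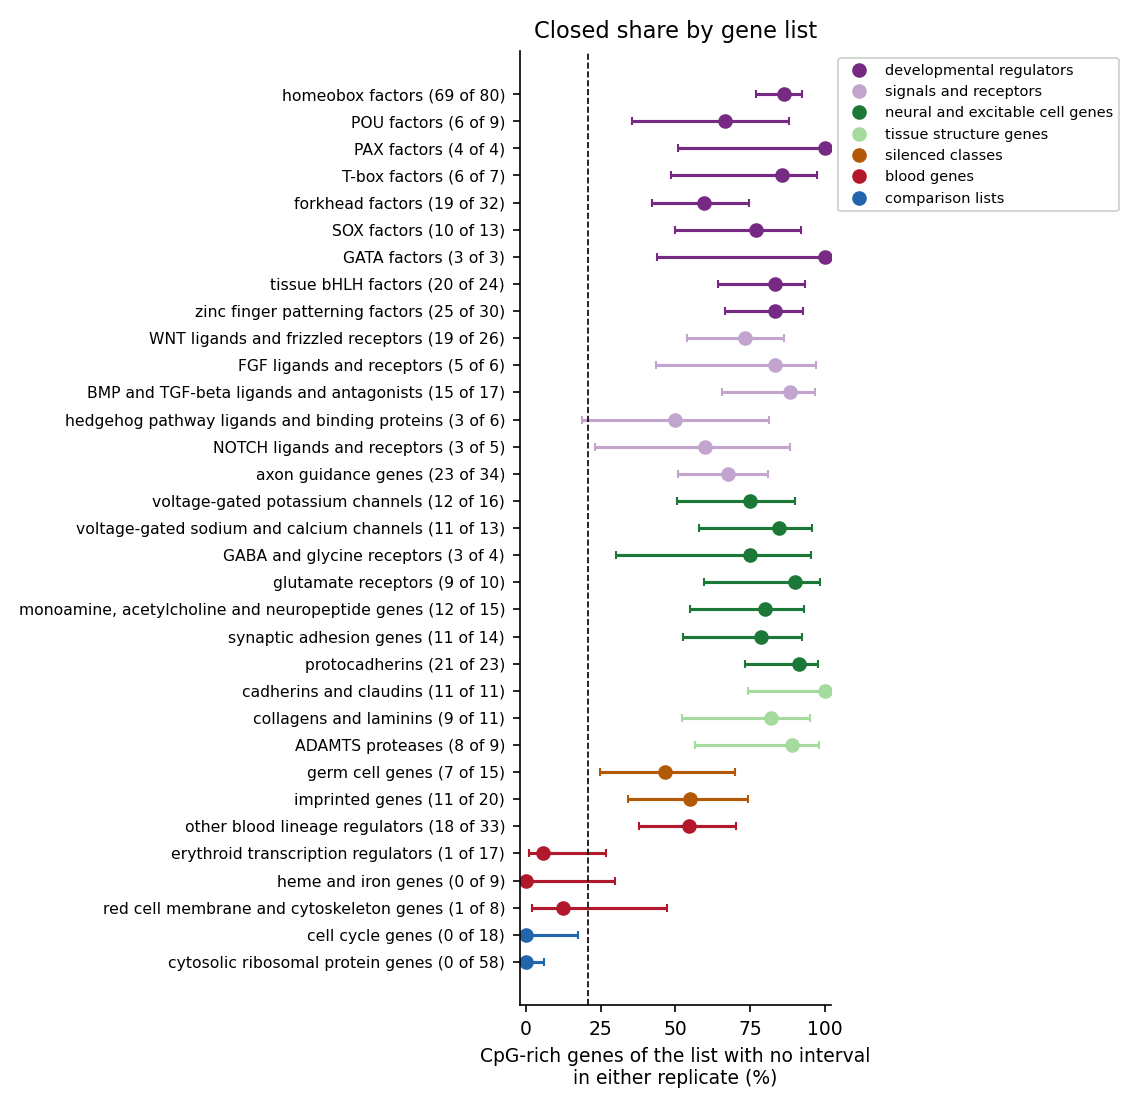
Share of CpG-rich genes of each list that were closed in both replicates (horizontal axis, %), with 95% Wilson intervals, colored by class; the dashed line marks 20.7%, the share over all CpG-rich genes. Developmental, neural and tissue structure lists lie to the right of the line, and cell cycle and ribosomal protein genes lie at 0.

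Signals and their receptors followed. Of 94 CpG-rich genes in 6 lists 68 were closed (72.3%, 62.6 to 80.4%). WNT ligands, frizzled receptors and their modulators were closed in 19 of 26 cases, among them Wnt3a, Wnt7a, Sfrp1 and Fzd3, while Wnt7b, Wif1, Fzd5, Fzd7 and Fzd9 were open. Ligands and antagonists of the BMP and TGF-beta family were closed in 15 of 17 cases. Bmp2 had its nearest interval 62.6 kb away in both replicates, and Nog, which encodes the BMP antagonist noggin, had it just beyond the 1 kb window at 1.02 kb in replicate 1 and 1.21 kb in replicate 2. Of the FGF list 5 of 6 were closed. Fgfr2, a receptor, is annotated over 2961 kb because its outermost 5′ end lies far upstream, and 25 open sites shared by both replicates lay within that span. Hedgehog genes were closed in 3 of 6 cases (Ihh, Gas1, Boc) with Ptch1 open, and NOTCH genes in 3 of 5 (Jag1, Jag2, Dlk1) with Notch2 and Dlk2 open. Axon guidance genes were closed in 23 of 34 cases, including Slit2, Slit3, Ntn1 and all 4 members of the UNC5 receptor family, and 11 were open, including Plxnb2, Plxnd1, Efnb2 and Sema3f.

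Genes of neurons and excitable cells were closed in 79 of 95 cases (83.2%, 74.4 to 89.4%). Voltage-gated potassium channels had 12 of 16, sodium and calcium channels 11 of 13, glutamate receptors 9 of 10, and genes of monoamine, acetylcholine and neuropeptide signalling 12 of 15. Grik3, a kainate receptor subunit, had 192 CpGs, with its nearest interval 47.8 kb away in replicate 1 and 345.2 kb away in replicate 2. Grm8 was the open glutamate receptor. Synaptic adhesion genes had 11 of 14 and protocadherins 21 of 23. The protocadherin count includes 2 annotated genes with the symbol Pcdha11, and the promoters of this cluster resemble each other. The 5 closed genes farthest from any interval were Slitrk1 at 3655 kb in both replicates, Pcdh10 at 3635 kb, Adgrl3 at 3559 kb, Pcdh9 at 3987 kb in replicate 1 and 3556 kb in replicate 2, and Slitrk5 at 3365 kb. All 5 encode cell surface proteins of neurons.

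Genes for tissue structure were closed in 28 of 31 cases (90.3%, 75.1 to 96.7%), and none of the 31 was open in both replicates. All 11 CpG-rich cadherin and claudin genes were closed, among them Cdh1 and Cdh2, which encode E- and N-cadherin. Collagen and laminin genes had 9 of 11, with Lamc1 and Col13a1 open in 1 replicate. The genes Col4a1 and Col4a2, which encode the main collagen chains of basement membranes, share a promoter and were both closed. ADAMTS proteases had 8 of 9.

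Germ cell genes and imprinted genes, which DNA methylation is known to silence on both or on 1 of the alleles, were split. Of 15 CpG-rich germ cell genes 7 were closed (Tdrd5, Sycp1, Tex15, Rpl10l, Tdrd6, Ddx4 and Mael), and 7 were open (Dazl, Tdrkh, Stag3, Syce2, Tex14, Prdm9 and Meiob). Of 20 imprinted genes 11 were closed, among them Peg3, Peg10, Sgce, Dlk1 and Dio3. Peg10 had intervals 1.72 kb away in replicate 1 and 1.73 kb away in replicate 2. Open imprinted genes included Igf2r, Cdkn1c, Gnas and Commd1. Allele-specific opening cannot be read from these lists.

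Regulators of other blood lineages were closed in 18 of 33 cases (54.5%, 38.0 to 70.2%). They included Cebpa, Irf8 and Gfi1 of the granulocyte and monocyte lineage, Maf of macrophages, Bcl11b, Tcf7, Lef1, Tbx21, Eomes, Rora, Tox2 and Zbtb16 of T and other lymphoid cells, Ikzf3 of B cells, and Gata2, Meis1, Mycn and Flt3 of stem and progenitor cells. Cebpa had 206 CpGs in its window and a CpG-rich stretch of 3210 bp, with its nearest interval 7.88 kb away in replicate 1 and 8.54 kb away in replicate 2. Bcl11b had its nearest interval 175 kb away in both replicates, and Meis1 had it 805 kb away in both. Gfi1 had 2 open sites away from start sites within 50 kb in replicate 1 and none in replicate 2, while Ikzf3 had 3 in each. Flt3, a cytokine receptor of early progenitors, had its nearest interval 17.9 kb away in replicate 1 and 2.94 kb away in replicate 2. The 11 open genes of this list were Ikzf1, Ikzf2, Myb, Myc, Tcf3, Xbp1, Bcl11a, Cebpb, Cebpd, Nr4a2 and Nr4a3, and Kit, Etv6, Egr2 and Hlf were open in 1 replicate.

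The lists of red cell genes are short, and the intervals of all 3 include the 20.7% of all CpG-rich genes. Of 17 CpG-rich erythroid regulators 1 was closed (5.88%, 1.05 to 26.98%), Gata2, the GATA factor of progenitors that GATA1 replaces during erythroid maturation. Its nearest interval was 47.4 kb away in replicate 1 and 38.2 kb away in replicate 2. Gata5 and Gata6, the other CpG-rich GATA genes, were also closed. None of 9 CpG-rich heme and iron genes was closed (upper Wilson limit 29.9%). Of 8 membrane and cytoskeleton genes 1 was closed (12.5%, 2.24 to 47.1%), Slc2a1, which encodes the glucose transporter GLUT1. Its nearest interval lay 12.4 kb away in replicate 1 and 48.2 kb away in replicate 2, and it had 3 open sites away from start sites within 50 kb in replicate 1 and 1 in replicate 2. None of 18 cell cycle genes and none of 58 cytosolic ribosomal protein genes was closed, with upper Wilson limits of 17.6% and 6.21%. In all, 368 closed genes (24.4%) stood in at least 1 list, and the other 1138 in none.

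Closed and open CpG-rich genes were both chosen for a ratio of 0.6 or more in the 1 kb on either side of the 5′ end, so their likeness in CpG content there is partly set by the rule. The median ratio was 0.706 in closed and 0.722 in open CpG-rich genes, while the median number of CpGs in the window was 123 in closed and 110 in open genes, and the median GC content was 59.5% in closed and 55.5% in open genes. The mean density at the start was 10.8 CpG per 100 bp in closed and 10.7 in open genes over the first 100 bases of the gene. Downstream the densities differed more. At 950 bp into the gene, still inside that window, the density was 4.89 CpG per 100 bp in closed and 3.05 in open genes, and at 1450 bp, outside it, it was 2.82 in closed and 1.55 in open genes. The longest CpG-rich stretch near the start had a median length of 1310 bp in closed and 1160 bp in open genes. It reached 2 kb or more in 12.5% of closed and 5.31% of open genes. A stretch also had to meet a GC condition, and the part that GC content plays in its length was not tested.

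Closed developmental regulators had longer CpG-rich stretches than the other classes of closed genes compared. The 162 closed ones had a median stretch of 1685 bp, and 56 of them (34.6%) reached 2 kb. Their density at the start was 9.23 CpG per 100 bp and 4.93 at 1450 bp. The 33 open developmental regulators had a median stretch of 1650 bp. Over the closed genes named from any list, the longest stretches were those of Fgfr2 with 3870 bp, Efna5 with 3830 bp, Pcdh7 with 3810 bp, Irf2bpl with 3560 bp and Prdm16 with 3490 bp. Prdm16 is a developmental regulator, while Fgfr2 and Efna5 stand in signal and receptor lists and Pcdh7 in the protocadherin list. The Fgfr2 stretch was sought around its outermost 5′ end, which lies far upstream.

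**Figure D3:**
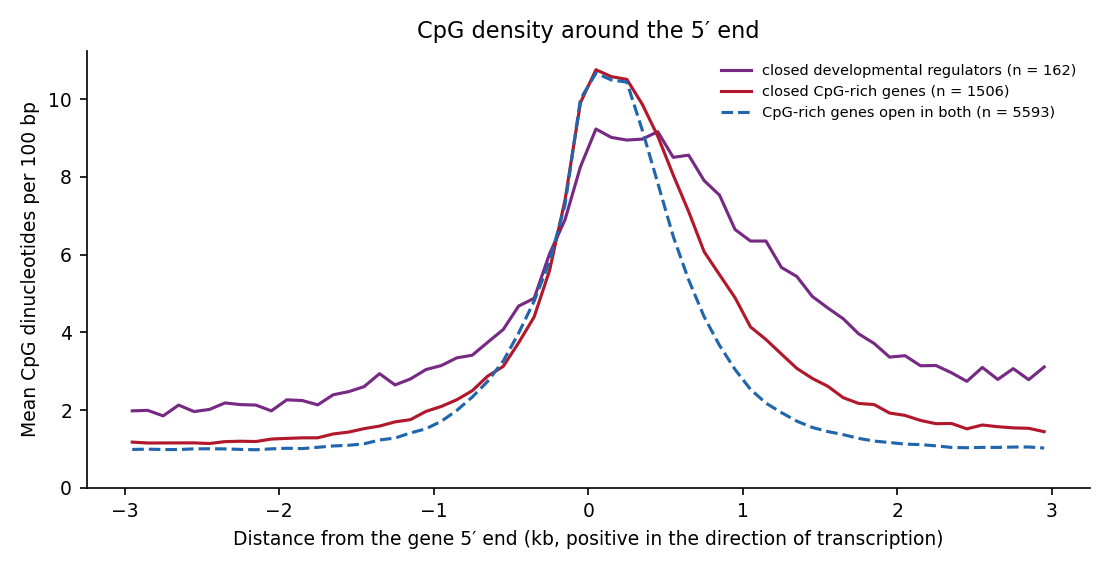
Mean number of CpG dinucleotides per 100 bp (vertical axis) against distance from the 5′ end (horizontal axis, kb, positive into the gene) for closed developmental regulators, all closed CpG-rich genes and open CpG-rich genes. The curves of closed and open genes coincide at the start and separate downstream, with 4.89 in closed and 3.05 in open genes at 950 bp.

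Some promoter motifs were several times rarer in closed genes. They were sought from 250 bp before to 50 bp after the 5′ end on both strands. Motifs of up to 9 bases are spelled out and were matched as exact letters, and none of those spelled here contains another in full. The ETS motif CCGGAAG was found in 61 closed genes (4.05%, 3.17 to 5.17%) and 1203 open genes (21.5%, 20.5 to 22.6%), with 11.03% of all protein-coding genes holding it. The NRF1 motif was in 0.930% of closed, 2.99% of open and 1.25% of all genes. The CREB motif TGACGTCA was in 2.12% of closed, 4.34% of open and 2.43% of all genes. The YY1 motif was in 0.266% of closed, 1.91% of open and 0.779% of all genes, and the ZBTB33 motif was in 0.332% of closed, 1.73% of open and 0.625% of all genes. At least 1 of these 5 motifs was present in 115 closed genes (7.64%, 6.4 to 9.09%) and 1668 open genes (29.8%, 28.6 to 31.04%). The Fzd3 stretch printed above holds the NRF1 motif, as do 14 closed genes in all.

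For comparison, the same 7 letters put in 119 other orders that keep a CpG were present in a median of 4.38% of closed and 5.13% of open genes. The share in open over that in closed genes had a median of 1.09 over these orders with a range of 0.656 to 4.39, against 5.31 for the motif. Among genes with 1 annotated start site the ETS motif was in 16 of 346 closed (4.62%) and 90 of 521 open genes (17.3%). Among closed developmental regulators 5 of 162 held it (3.09%, 1.33 to 7.02%), close to the share over all closed genes. They were the homeobox genes En1, Irx3 and Meis1 with Pou3f3 and Sox21.

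Other motifs were closer. The GC box GGGCGG, bound by SP and KLF factors, was in 68.7% of closed and 72.4% of open genes, against 43.7% of all genes. The KLF box GGGTGTGG was in 3.39% of closed, 3.43% of open and 3.84% of all genes, and the GATA motif AGATAA in 5.38% of closed, 4.74% of open and 9.94% of all genes. The letters CCAAT, bound by NF-Y, were in 29.7% of closed, 39.1% of open and 38.6% of all genes. Closed developmental regulators went the other way with 85 of 162 (52.5%, 44.8 to 60.01%). The E-box CACGTG was in 8.76% of closed, 11.9% of open and 7.82% of all genes, and the E2F motif TTTCGCGC in 0.531% of closed, 0.805% of open and 0.365% of all genes. Shares were higher in closed genes for the E-box CAGCTG (15.2% of closed, 12.1% of open, 15.5% of all genes), the TATA box TATAAA (7.44% of closed, 5.61% of open, 12.7% of all genes) and the homeodomain core TAATTA (2.59% of closed, 1.79% of open, 5.21% of all genes). The site of REST, a repressor of neuronal genes, was sought with a pattern that allows different letters at some positions. It was matched at 2 closed genes (0.133%), Unc5c and Fbll1, and 3 open genes (0.0536%), against 0.0961% of all genes. These counts are small, and the REST shares differed more in the other windows tried. With 500 bp either side of the 5′ end they were 1.06% of closed and 0.161% of open genes. With 150 bp either side they were 0.199% of closed and 0.0179% of open genes, again from few genes. The CTCF motif was matched in none of the closed and 2 of the open genes, against 0.0288% of all genes. A match describes letters in this window and is not a bound site.

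**Figure D4:**
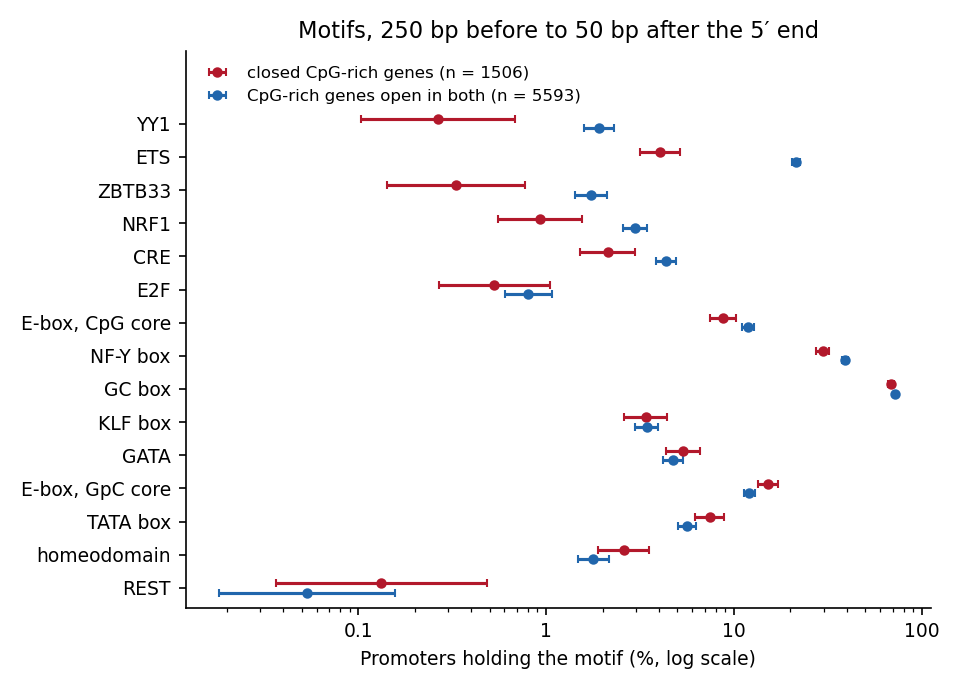
Share of promoters holding each motif (horizontal axis, %, log scale) in closed CpG-rich genes and in CpG-rich genes open in both replicates, with 95% Wilson intervals, ordered by the ratio of the 2 shares. YY1, ETS, ZBTB33, NRF1 and CREB motifs (top) are rarer in closed genes, the ETS motif with 4.05% in closed and 21.5% in open genes.

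The genes themselves were longer and lay farther apart. Their median length was 50.3 kb in closed and 28.1 kb in open CpG-rich genes, and 33.5% of closed and 12.3% of open genes exceeded 100 kb. Closed developmental regulators were short, with a median of 6.28 kb, and closed neural genes long, with 102.4 kb. A median of 3 start sites was annotated in closed and 5 in open genes, and 22.97% of closed and 9.32% of open genes had 1. A gene with more start sites has more chances to lie near an interval, and the part this plays in the split was not tested. A protein-coding gene of the opposite strand started within 1 kb upstream of 26 closed (1.73%) and 978 open genes (17.5%). Opposite pairs whose 5′ ends overlap, such as Col4a1 and Col4a2, are not in these counts. No other protein-coding gene started within 50 kb of 59.5% of closed and 24.1% of open genes. The share of 36-base words that are unique was under 90% at 45 closed (2.99%) and 344 open genes (6.15%).

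Closed genes lay in neighborhoods with fewer open sites. Open sites over 1 kb from any annotated start numbered 17127 in replicate 1 and 18375 in replicate 2, and 13736 of them were shared. Such a site lay within 50 kb of the 5′ end of 39.97% of closed genes in replicate 1 and 42.5% in replicate 2, and of 75.6% of open genes in replicate 1 and 77.6% in replicate 2. The means were 41.2 ± 1.78% in closed and 76.6 ± 1.43% in open genes (SD, n = 2 each). The replicates carry 1 donor identifier, so these SDs may hold technical spread only. The mean number of sites was 0.868 ± 0.0315 in closed and 2.19 ± 0.0813 in open genes. The median distance to the nearest such site was 75.3 ± 6.56 kb in closed and 19.1 ± 0.442 kb in open genes. Counting intervals of any kind, the nearest one was a median of 40.04 kb from a start site of closed genes in replicate 1 and 37.6 kb in replicate 2, and 407 closed genes (27.03%) had none within 100 kb in either replicate.

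**Figure D5:**
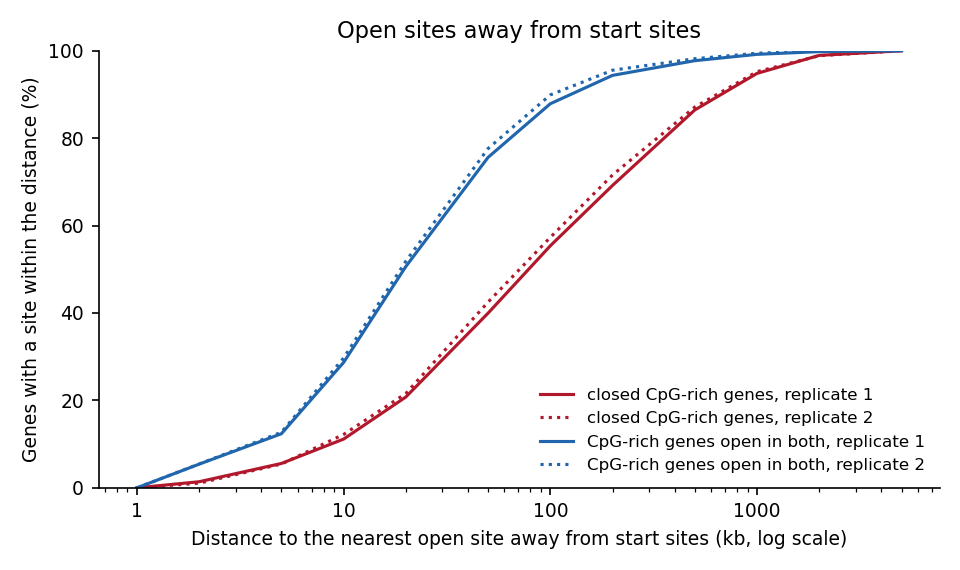
Share of genes with an open site over 1 kb from any start site (vertical axis, %) within a given distance of the 5′ end (horizontal axis, kb, log scale), for closed and open CpG-rich genes in each replicate. At 50 kb the closed genes reach 39.97% and 42.5% and the open genes 75.6% and 77.6% in replicates 1 and 2, and the lines of both replicates run close together.

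These shares are also given by the number of other protein-coding 5′ ends within 50 kb, a split added after the data were seen. The last group pools all numbers of 2 or more, so closed and open genes in it need not be alike in density. The part that gene density plays in the contrast was not tested. With no other 5′ end within 50 kb, such a site was near 28.0 ± 1.66% of 896 closed and 67.9 ± 0.946% of 1346 open genes (SD, n = 2 replicates each). With 1 other 5′ end the shares were 51.3 ± 3.07% of closed and 74.5 ± 2.43% of open genes, and with 2 or more they were 69.8 ± 0.909% of closed and 82.1 ± 1.11% of open genes. The gap between closed and open genes was widest for isolated genes and narrowest for crowded ones. Inside the gene body a shared site was present in 16.7% of closed and 31.2% of open genes. The nearest other protein-coding gene was open in both replicates for 48.5% of closed and 74.1% of open genes. It was itself a closed CpG-rich gene for 13.5% of closed and 4.79% of open genes. It had no interval in either replicate for 723 of 1506 closed genes, close to the 49.3% of all protein-coding genes. For open genes this held in 1312 of 5593 cases (23.5%). An open gene and a neighbor that starts within 1 kb can share an interval, and the part this plays was not tested.

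Closed promoters beside many open sites were few: 31 closed (2.06%) and 555 open genes (9.92%) had 5 or more shared sites within 50 kb. Ccdc102a had 10 in replicate 1 and 9 in replicate 2, with its nearest interval 7.92 kb away in replicate 1 and 8.02 kb away in replicate 2. Gm266 had 10 in replicate 1 and 7 in replicate 2. Trim8, a ubiquitin ligase gene, had 8 in replicate 1 and 7 in replicate 2, and an interval 1.02 kb from a start site in both. Ssbp4 had 8 in replicate 1 and 10 in replicate 2, and Irf2bpl 7 in replicate 1 and 8 in replicate 2. Celsr1, a planar cell polarity gene, and Chd3, a chromatin remodeler, had 7 in each. BC107364 had most, with 11 in replicate 1 and 10 in replicate 2, but none of the 36-base words around its start is unique, and the part this plays in the missing interval was not tested.

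Closed genes occurred on every chromosome tested. Their share of CpG-rich genes ran between 13.5% on chromosome 17 and 31.4% on chromosome 18 (70 of 223, 25.7 to 37.8%). A run is a series of closed genes with no other CpG-rich gene between them. On chromosome 18 runs of 11 and 6 neighboring closed genes were those of the protocadherin alpha and gamma clusters. On chromosome 2 a run of 6 reached from Fign to Cers6 over 4763 kb, and on chromosome 4 a run of 5 from Rasef to Zdhhc21 over 9069 kb. Another run of 5 on chromosome 2, from Prrg4 to Mpped2, spans 1843 kb and includes Wt1 and Pax6, regulators of kidney and eye that lie near each other. On chromosome 12 a run of 5 was that of the acyl-CoA thioesterase genes Acot1, Acot2, Acot4 and Acot5, a family of similar sequences, with Gm49366 among them.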

How the data were processed

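ATAC-seq peak lists of 2 replicates of 1 group were used. The labels give the replicates separate biosamples but the same donor identifier, so their spread may be technical. Coordinates are in mm10, per the labels. The sources used here name no aligner, peak caller or library depth. Of the deposited lists only the positions and the enrichment were used, a ratio (fold) of the summit over background by the authors' caller. No step that makes enrichment comparable between lists is known, so it describes intervals within a list. Ranks that draw on several lists are descriptions only.

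Start sites of all transcripts came from GENCODE M21 and sequence from GRCm38.p6. An interval counted when it overlapped the 1000 bp either side of a start site by at least 1 bp. The CpG ratio was the CpG count times length over the C count times the G count. CpG-rich stretches were built from 200 bp windows, moved by 10 bp. A window counted if its ratio was 0.6 or more and C and G made up no fewer bases than A and T. Counted windows were joined where they overlapped or touched. The longest stretch in a region reaching beyond 1000 bp either side of the 5′ end was used, whether or not it covered the 5′ end. Uniqueness of 36-base words was counted over the genome, and the word and motif counting was tested on simulated data. Shares have 95% Wilson intervals. No test was made, as 1 group allows no contrast between samples and genes are not replicates. Members, gene lists and motifs were chosen with earlier results of these data known. Named genes were the closed genes of the blood lists, the 3 of highest CpG ratio in other lists, and the extremes of CpG ratio, distance, number of sites and enrichment; further names were chosen after their values were seen, and a few genes that the rule picks are not reported here. Python 3.11.15, numpy 2.4.6, pandas 2.3.3 and numba 0.67.0 were used.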

Additional observations from a re-analysis of the deposited data

How the results depend on the processing

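No paired analysis was possible because the series has 1 group and no contrast. The number of closed CpG-rich genes, 1506, was 2314 at a CpG ratio of 0.5 or more and 783 at 0.7 or more. Under these 2 settings closed developmental regulators numbered 210 and 103, signals and receptors 104 and 29, and neural genes 124 and 36, while the closed share of the lists ran from 76.9 to 82.4%, 67.4 to 76.5% and 83.7 to 86.1%. Leaving out replicate 1 gave 1581 closed genes and leaving out replicate 2 gave 1597; for the 3 groups these counts were 166 and 165, 70 and 70, and 82 and 82. Other windows, lists and filters kept each count within 1.5 times. The share of closed genes with an open site nearby, 41.2%, was 24.5% within 25 kb, 56.3% within 100 kb and 18.5% with the thresholded lists, against 57.7%, 88.9% and 51.1% of open genes. By gene density (added after seeing the data) it was 28.0%, 51.3% and 69.8%. Without replicate 1 or 2 it was 42.5 or 39.97%. The median distance of closed genes to the nearest interval, 38.8 kb, was 82.7 kb with the thresholded lists, and 37.6 and 40.04 kb without replicate 1 or 2. Of 16 motifs, 14 kept their direction between closed and open genes in windows of 500 and 150 bp either side. GATA and TATA motifs did not. The shares themselves moved: 16 of 32 in closed genes lay outside the Wilson interval of the main window. With 500 bp either side the ETS motif was in 11.6% of closed and 36.1% of open genes. With 150 bp it was in 4.78% of closed and 22.4% of open genes. Depth is unknown, so a weakly open promoter cannot be told from a closed one.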

Other observations

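The following genes were picked after their values were seen, so they are examples and no list is tested. For each count below, the share over all CpG-rich genes was 20.7%. Among closed CpG-rich genes were 6 of 13 CpG-rich genes of the Hippo pathway, which senses cell contact and tissue tension. The closed ones were the transcription factors and coactivators Yap1, Wwtr1, Tead1, Tead3, Tead4 and Vgll3, while the kinases and adaptors Lats1, Stk4, Sav1, Mob1a, Mob1b and Nf2, with Vgll4, were open in both replicates. Yap1 had an interval 1.54 kb from a start site in replicate 1 and its nearest one 33.2 kb away in replicate 2. Of 6 CpG-rich genes of the LIN28 and let-7 axis, which marks fetal cells, 5 were closed: Lin28b, Igf2bp1, Igf2bp2, Igf2bp3 and Hmga2. Arid3a was open.

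Among subunits of the second Polycomb complex, 1 of 10 CpG-rich genes was closed (Epop), with Ezh1, Ezh2, Eed and Suz12 open. These are too few genes to set apart from the 20.7% of all CpG-rich genes. For receptors and SMAD proteins of the TGF-beta and BMP pathways 10 of 18 were closed, among them Smad1, Smad7, Smad9, Acvr1 and Tgfbr2, and Smad2, Smad3, Smad4 and Tgfbr1 were open, with Smad5 open in 1 replicate. Feedback inhibitors of kinase signalling of the sprouty, spred and dual-specificity phosphatase families were closed in 5 of 11 cases. Genes of the neuronal cytoskeleton were closed in 9 of 10, among them Nefl, Mapt and Nes. Several closed genes are known from many tissues: the nearest interval lay 89.4 kb from Clock, 46.5 kb from Cbfb and 47.7 kb from Fkbp1a in both replicates.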
